A study of Mus musculus with 7 samples.

Results

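The complement genes of the heart were taken from the raw count table of left ventricles by mapping its Ensembl identifiers to mouse symbols. The members are 9 of the 20927 entries kept from that table: *C1qa*, *C1qb*, *C1qc*, *C1s1*, *C3*, *C4b*, *Cfd*, *Cd55* and *Serping1*. All 9 were listed, and all 9 passed the filter on low counts, which asked for 10 counts or more in 3 libraries or more and kept 13894 genes. The study asked how a missense change in titin acts on the heart, and RNA of left ventricles was sequenced as stranded poly(A) libraries. The allele, A178D, was made in C57BL/6N embryonic stem cells by CRISPR-Cas9 and homology-directed repair, and the line was backcrossed to C57BL/6J. The groups were WT (n = 3) and homozygous A178D littermates (n = 4), labelled as strain C57BL/6J, and the ages and sexes of the sequenced mice were not given in the sources used here. The WT libraries carried the replicate numbers 1, 3 and 4 and held 51797208, 54245530 and 41102868 counts. The A178D libraries, numbered 1 to 4, held 40623300, 52345529, 42174448 and 33080675 counts.

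Complement is a cascade of proteins that marks particles and damaged cells for removal. C1q, or lectins that bind sugars, recognise a surface and activate serine proteases, which split C4 and C2 to build an enzyme that splits C3, while factor D starts the alternative route. Regulators on cell surfaces and in plasma hold the cascade in check. The liver makes most complement of the plasma, whereas C1q comes largely from macrophages and dendritic cells, and resident cells of the heart express several components themselves.

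Values below are CPM, which are counts brought to a common library size after TMM scaling, and log2 fold changes are A178D minus WT. A gene is called when its adjusted p is under 0.05 in edgeR's quasi-likelihood test, adjusted by Benjamini-Hochberg over all 13894 genes. A pair of libraries stood apart in a measure over all genes. Counts in WT replicate 1 leaned toward long transcripts, with a log2 difference between genes of 4000 and of 1000 bases of 0.18 relative to the mean of the libraries. In A178D replicate 4 this difference was -0.19, against -0.08 to 0.05 in the other 5 libraries. Results for the complement genes are therefore also given without this pair, a choice made after seeing the data.

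No complement member was called between the genotypes by edgeR (0 of 9), where 2.35% of all tested genes were called. At an unadjusted p under 0.05 there were 4 members, *C1qa*, *C1qb*, *C1s1* and *C4b*, where 16.7% of all genes were. DESeq2's Wald test called 3 of the 8 members to which it gave an adjusted p, *C1qb*, *C1s1* and *C4b*, beside 5.06% of all such genes, and gave none to *Cfd*. Limma-voom called 0 of the 9. In these same 3 genes no A178D heart lay within the range of the WT hearts, *C1qb* and *C4b* being higher in A178D and *C1s1* lower, where 16.1% of all genes were without overlap, in one or the other direction. Counts in the lists below stand beside the same shares of all genes, 2.35% called by edgeR and by limma-voom and 5.06% by DESeq2. At an unadjusted p under 0.05 the share is 16.7%. The median log2 fold change of the 9 members was 0.09, with 6 above 0, beside a median of 0.00 for all tested genes, of which 50.5% lay above 0. Leaving out WT replicate 3 gave 0.15, leaving out WT replicate 4 gave 0.03, and with both WT replicate 1 and A178D replicate 4 left out it was 0.04. In the wider complement list of 54 genes, 39 were tested and 1 was called by edgeR, *Masp1*, which rose. The median of these 39 was 0.08, with 26 above 0, and 10 had an unadjusted p under 0.05. It was 0.02 without A178D replicate 1, 0.05 without A178D replicate 4 and 0.00 without WT replicate 1 and A178D replicate 4, where 19 lay above 0. DESeq2 called 5 genes of the list and limma-voom 1. The number called by edgeR depended on single hearts, since *Masp1* lost its call without WT replicate 3 or WT replicate 4, and 4 genes of the list, beside 3.29% of all genes, were called without WT replicate 1. Without both WT replicate 1 and A178D replicate 4, edgeR called 1 member, *C4b*, and 4 genes of the wider list, beside 5.53% of all genes, so calls were more frequent among all genes as well.

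**Figure D1:**
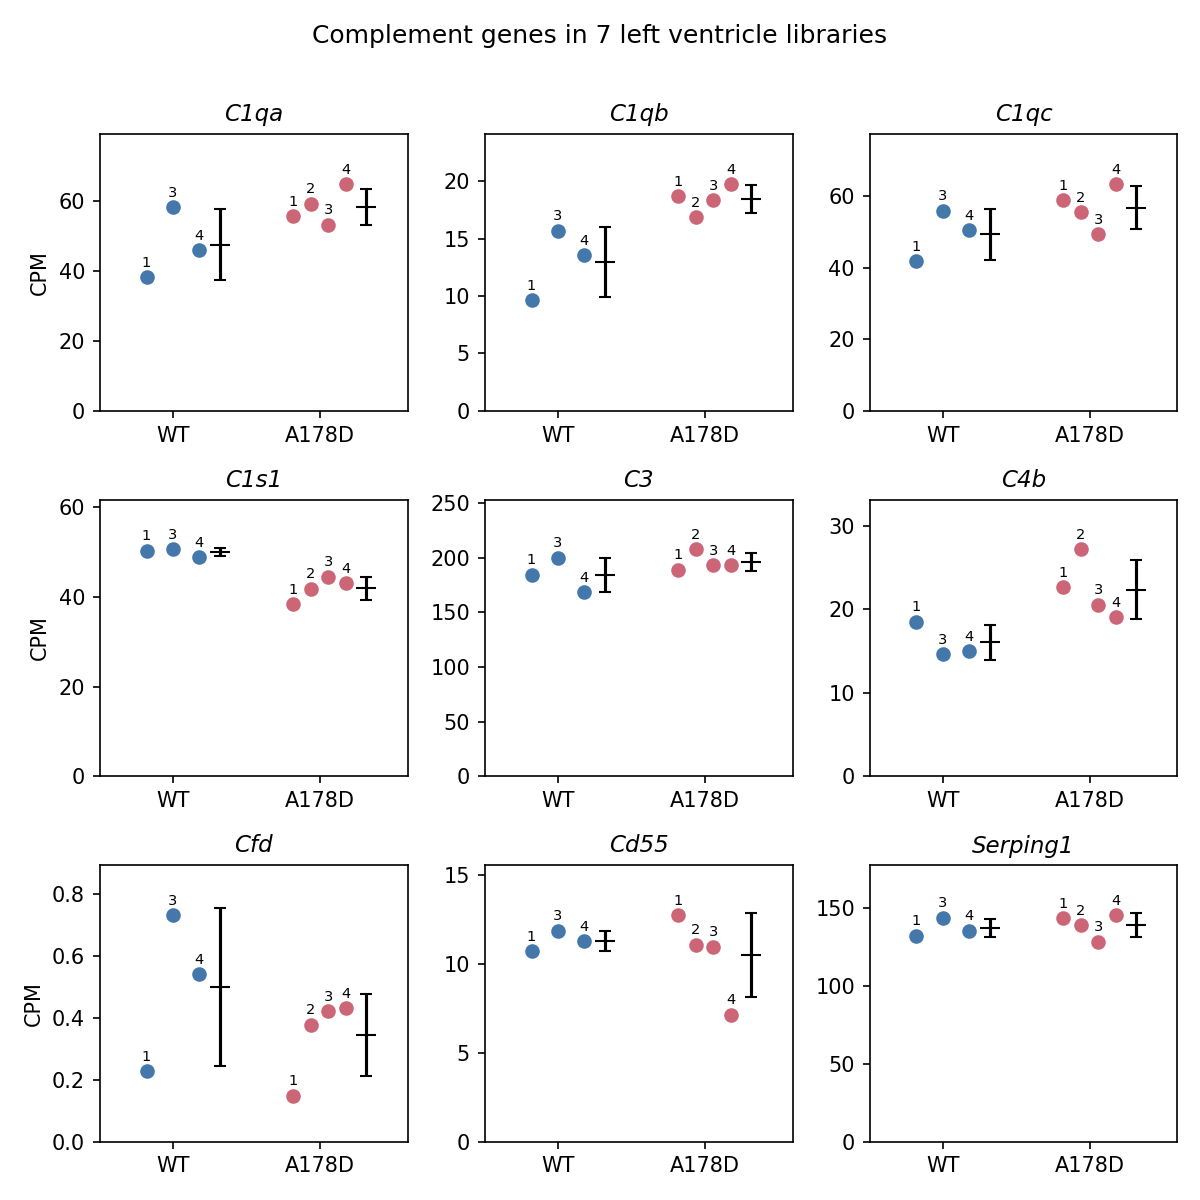
CPM of the 9 complement members in each library, with WT and A178D hearts side by side, each point numbered by its replicate and the black bar giving the mean ± SD. *C1qb* and *C4b* lie higher in each of the 4 A178D hearts than in the 3 WT hearts and *C1s1* lies lower, while the hearts overlap in the other 6 genes.

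Levels between genes were compared as CPM per kb of exon, the CPM divided by the annotated exon length of the gene. *Serping1*, the C1 inhibitor, had the highest level per kb of the 9 members in WT hearts, 59.0 ± 2.58 (SD, n = 3). *C1qa* followed at 45.7 ± 9.71 and *C3* at 35.8 ± 3.08 CPM per kb. The ranges of one SD around the means of *C1qa* and *C3* overlapped, so their order in WT was not resolved. *C1qc* had 25.6 ± 3.68, *C1s1* 16.0 ± 0.295 and *C1qb* 11.9 ± 2.81 CPM per kb. These encode chains of C1q and C1s, a protease of the C1 complex, and their levels per kb in WT were apart by more than one SD. *C4b* at 2.82 ± 0.376 and *Cd55* at 2.33 ± 0.117 CPM per kb were not apart by that measure. *Cfd* had the lowest level of the 9, 0.544 ± 0.277 CPM per kb. In A178D hearts the order per kb was the same except that *C1qb*, at 16.9 ± 1.11 (SD, n = 4), stood above *C1s1*, at 13.4 ± 0.832. The SD ranges of *Serping1*, 59.8 ± 3.26, and *C1qa*, 56.0 ± 4.86, overlapped in A178D, so their order there was not resolved. With the longest transcript as the length in place of all exons, *C1qc* had 41.0 ± 5.91 CPM per kb in WT and stood above *C3*. The SD range of *C3*, 35.9 ± 3.08, overlapped that of *C1qc*. By this length *Cd55* had 3.61 CPM per kb in WT and stood above *C4b*.

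**Figure D2:**
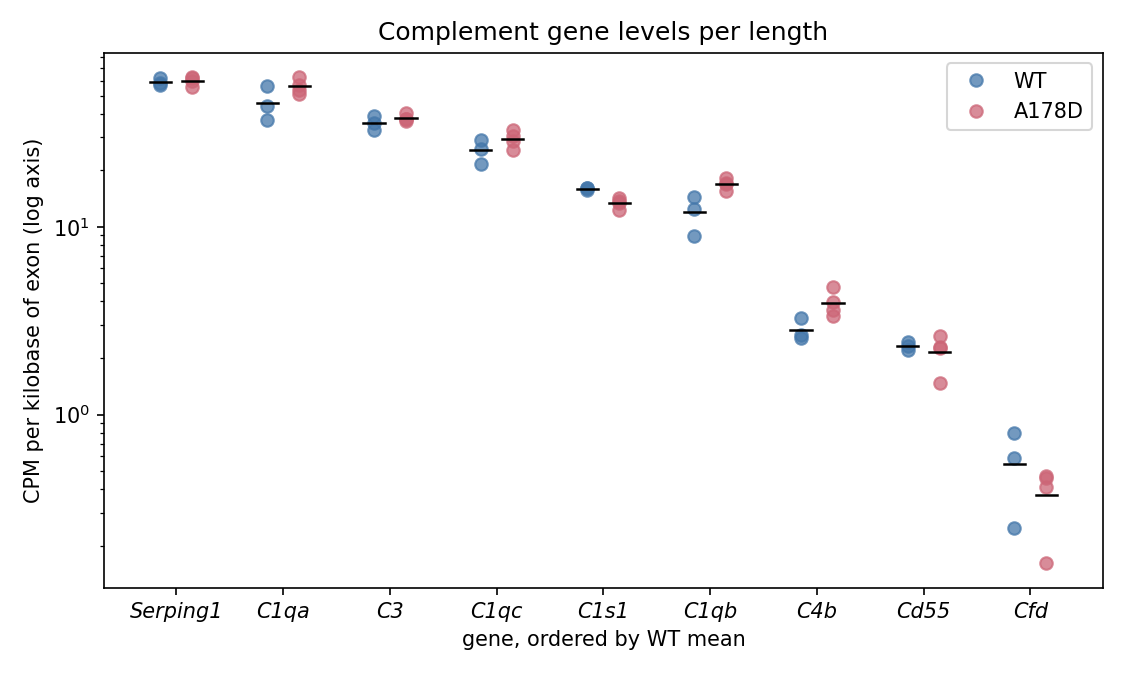
CPM per kb of exon of the 9 complement members on a log axis, ordered by the WT mean, with a dot for each library and a black line at each mean. The genes span from 0.544 for *Cfd* to 59.0 for *Serping1* in WT, and *C1qb* and *C1s1* change places between the genotypes.

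The recognition part of C1 is a hexamer of trimers that each hold an A, a B and a C chain, encoded by *C1qa* (ENSMUSG00000036887), *C1qb* (ENSMUSG00000036905) and *C1qc* (ENSMUSG00000036896). The genes lie in a row on the minus strand of chromosome 4 (GRCm38), *C1qb* from 136880129 to 136886187, *C1qc* from 136889804 to 136893065 and *C1qa* from 136895917 to 136898803, with gaps of 3616 and 2851 bases. *C1qb* had 9.67, 15.7 and 13.6 CPM in WT replicates 1, 3 and 4 and 18.7, 16.8, 18.4 and 19.8 CPM in A178D replicates 1 to 4. WT replicate 1 was the lowest heart, and the groups did not overlap. The means were 13 ± 3.06 (SD, n = 3) and 18.4 ± 1.21 CPM (SD, n = 4), a log2 fold change of 0.50 (standard error 0.14, 95% interval 0.21 to 0.80). The gene was not called by edgeR (adjusted p = 0.0787, higher in 4 of 4 A178D hearts). Over the alternatives tried, the adjusted p of *C1qb* ranged from 0.0156 in DESeq2 to 0.18 in edgeR without WT replicate 4. The gene was called by DESeq2, by edgeR with no filter on low counts and with a block that pairs hearts by replicate number. In that block A178D replicate 2 has no WT partner. Its log2 fold change was 0.33 without WT replicate 1, and without both this library and A178D replicate 4 it was 0.29.

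*C1qa* had 38.3, 58.3 and 45.9 CPM in WT and 55.6, 59.2, 53.3 and 64.9 CPM in A178D hearts. WT replicate 3 lay among the A178D hearts, so the groups overlapped. The log2 fold change of *C1qa* was 0.29 (standard error 0.12; edgeR, adjusted p = 0.236, with 4 of 4 A178D hearts above the WT mean). Without WT replicate 1 it was 0.16, without WT replicate 3 it was 0.47, and without WT replicate 1 and A178D replicate 4 it was 0.10. With offsets for transcript length and GC content it was 0.19, and that of *C1qb* was 0.41. *C1qc* had 41.8, 55.9 and 50.4 CPM in WT and 58.9, 55.4, 49.4 and 63.4 CPM in A178D hearts. The groups overlapped here too, with A178D replicates 2 and 3 between the WT hearts. Its log2 fold change was 0.20 (95% interval -0.03 to 0.43). It was 0.0962 without WT replicate 1, 0.04 when A178D replicate 4 was left out too, and 0.104 with offsets for transcript length and GC content. All 3 chains were lowest in WT replicate 1.

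The chains are needed in equal numbers for the protein, so their ratios were taken in each heart. The CPM of *C1qb* per CPM of *C1qc* was 0.231, 0.281 and 0.269 in WT and 0.318, 0.304, 0.372 and 0.312 in A178D hearts. These ratios did not overlap. *C1qb* per *C1qa* was 0.252, 0.269 and 0.296 in WT and 0.336, 0.285, 0.345 and 0.305 in A178D hearts, and overlapped through A178D replicate 2. *C1qa* per *C1qc* lay between 0.911 and 1.04 in WT and between 0.945 and 1.08 in A178D hearts, and overlapped. No stretch of 76 bases, the read length, was shared between the longest transcripts of *C1qa* and *C1qb* or of *C1qb* and *C1qc*, so a read that matched one in full could not match the other.

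Because macrophages are the main makers of C1q, their marker genes were read beside these values. All 13 macrophage markers were tested and 1 was called by edgeR, *Cx3cr1*, the fractalkine receptor. At an unadjusted p under 0.05 there were 4, in both directions, where 16.7% of all genes were. Beside *Cx3cr1* these were *Adgre1* with a log2 fold change of 0.33, *Lyve1* with -0.43 and *Cd163* with -0.32, named here after their values were seen. *Cx3cr1* had 3.84, 2.68 and 2.36 CPM in WT and 7.09, 8.23, 7.10 and 5.31 CPM in A178D hearts, and rose by a log2 fold change of 1.23 (edgeR, adjusted p = 0.00650, higher in 4 of 4). The call was lost without WT replicate 3 (edgeR, adjusted p = 0.0530, log2 fold change 1.15 with 4 of 4 still higher; range over the alternatives 7.39e-07 to 0.0530). The summed macrophage markers were 228, 292 and 257 CPM in WT and 279, 290.1, 248 and 257 CPM in A178D hearts, and overlapped. The log2 fold change of *Cx3cr1* was 1.56 without WT replicate 1 and A178D replicate 4. No macrophage marker had 0 counts in any library. *Csf1r* was the most abundant marker with a log2 fold change of 0.09, which was also the median of the list, with 10 markers above 0 and 3 below. That median was 0.03 without WT replicate 1 and 0.21 without WT replicate 3. The 3 C1q chains summed to 0.394, 0.445 and 0.427 of the summed macrophage markers in WT and to 0.477, 0.453, 0.489 and 0.576 in A178D hearts. That ratio did not overlap between the genotypes. Its lowest and highest values were in WT replicate 1 and A178D replicate 4, the pair that stood apart in the difference between long and short transcripts. Among the other hearts, the highest WT value of 0.445 lay next to the lowest A178D value of 0.453. In bulk tissue, more cells of a type and more RNA per cell cannot be told apart, and the part of macrophages in the C1q values was not tested.

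Of the 9 recognition molecules listed, which beside C1q are mannose-binding lectins, ficolins and collectins, 5 were tested and 0 were called by edgeR. At an unadjusted p under 0.05 there were 2, where 16.7% of all genes were, and DESeq2 called 1 and limma-voom 0. The log2 fold changes of all 5 lay above 0, where 50.5% of all tested genes did, and their median was 0.24. The median was 0.16 without WT replicate 1 and 0.14 without A178D replicate 4, and with both left out there were 4 above 0, with a median of 0.04. *Mbl1*, *Mbl2*, *Fcnb* and *Colec10* were low, with at most 2 counts in any library.

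The 250 bases before the RefSeq starts of *C1qb* and *C1qc*, neighbours that varied together over the libraries, are shown beside those of *C1s1*, the member that encodes a protease of the same complex and whose log2 fold change was below 0. Promoters of 6 of the 9 members were matched in RefSeq sequence of build GRCm38.p6, those of *C1qb*, *C1qc*, *C1s1*, *C3*, *Cfd* and *Cd55*, and *C1qa*, *C4b* and *Serping1* were not matched. The sequences are from RefSeq, on the minus strand at chr4:136886201-136886450 for *C1qb*, chr4:136892915-136893164 for *C1qc* and chr6:124542360-124542609 for *C1s1*. The annotations differ on the start of *C1qc*, so 151 of its 250 bases lie inside the gene as GENCODE places it, against 0 for the stretches of *C1qb* and *C1s1* shown. They run from 5′ to 3′, and capitals mark AGGAAG, a core that ETS factors such as PU.1 bind, or CTTCCT, the same on the other strand.
C1qb: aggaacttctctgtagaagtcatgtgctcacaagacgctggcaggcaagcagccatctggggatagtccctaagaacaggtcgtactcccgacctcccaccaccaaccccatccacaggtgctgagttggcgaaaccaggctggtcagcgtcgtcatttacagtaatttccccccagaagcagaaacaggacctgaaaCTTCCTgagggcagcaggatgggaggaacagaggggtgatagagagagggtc
C1qc: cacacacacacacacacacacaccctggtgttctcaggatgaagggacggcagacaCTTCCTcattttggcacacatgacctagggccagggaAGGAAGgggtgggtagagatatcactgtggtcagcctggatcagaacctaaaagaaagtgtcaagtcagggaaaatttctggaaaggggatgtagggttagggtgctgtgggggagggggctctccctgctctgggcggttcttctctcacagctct
C1s1: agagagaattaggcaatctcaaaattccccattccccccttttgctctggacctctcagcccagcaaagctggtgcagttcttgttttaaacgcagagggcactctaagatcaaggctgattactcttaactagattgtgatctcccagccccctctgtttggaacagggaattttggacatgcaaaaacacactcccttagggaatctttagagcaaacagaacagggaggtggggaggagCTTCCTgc
The motif has 1 copy before *C1qb*, 2 copies before *C1qc* and 1 copy before *C1s1*. It was in 4 of the 7 promoters of members, *C1s1* having a promoter for each of 2 starts whose stretches overlap and hold the same copy, so that it was in 3 of the 6 genes, in none of those of *C3*, *Cfd* and *Cd55*, and in 29.5% of all 32851 promoters of this length. The core of interferon response elements, a pair of GAAA with 2 bases between them, searched on both strands, was in 0 of the 7 promoters of members and in 2.98% of all. TTGCNNAA, a core of C/EBP sites, with TTNNGCAA on the other strand, was in 2 of the 7, those of *C3* and one start of *C1s1*, and in 9.56% of all. Whether any factor binds there was not measured.

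*C1s1* (ENSMUSG00000038521; chromosome 6, 124530345 to 124542359, minus strand) encodes the C1s protease, which splits C4 and C2 once C1q is bound. It had 50.3, 50.6 and 48.9 CPM in WT and 38.4, 41.8, 44.5 and 43.0 CPM in A178D hearts. The WT hearts lay close together, and each A178D heart was below them. The means were 49.9 ± 0.924 (SD, n = 3) and 41.9 ± 2.60 CPM (SD, n = 4), and the log2 fold change was -0.25 (standard error 0.07, 95% interval -0.41 to -0.09). *C1s1* was not called by edgeR (adjusted p = 0.10, lower in 4 of 4 A178D hearts). It was called by DESeq2 (adjusted p = 0.0441, lower in 4 of 4) and in edgeR with offsets for transcript length and GC content (adjusted p = 0.0359), within a range of 0.0359 to 0.284 over the alternatives. Without WT replicate 1 and A178D replicate 4 its log2 fold change was -0.26. An antisense gene, *Gm16567*, shares 18.4% of the exon bases of *C1s1*, and the near copy *C1s2*, which shares 14.4% of its stretches of 76 bases, had 0 to 4 counts.

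*Masp1* encodes the lectin pathway proteases MASP-1 and MASP-3, and MASP-3 cuts pro-factor D to its active form. It had 10.3, 7.5 and 8.47 CPM in WT and 15.9, 18.0, 12.7 and 14.6 CPM in A178D hearts. All A178D hearts lay above the WT hearts. The log2 fold change was 0.81 (standard error 0.14, 95% interval 0.51 to 1.11; edgeR, adjusted p = 0.0101, higher in 4 of 4). The call was lost without WT replicate 3 (edgeR, adjusted p = 0.0760, log2 fold change 0.71) and without WT replicate 4 (0.0630, log2 fold change 0.79), with 4 of 4 still higher and a range over the alternatives of 1.05e-05 to 0.0760. It was 0.96 without WT replicate 1 and A178D replicate 4.

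*Cfd* (ENSMUSG00000061780; chromosome 10, 79890853 to 79892655, plus strand) encodes factor D, or adipsin, which is secreted by fat cells. It had 12, 40 and 22 counts in WT and 6, 20, 18 and 14 counts in A178D hearts, or 0.149 to 0.734 CPM over both groups. The groups overlapped. Its log2 fold change was -0.53 with a 95% interval of -1.61 to 0.54, which holds differences of either sign. It was -0.89 without WT replicate 1, -0.13 without WT replicate 3, -0.29 without A178D replicate 1, and -1.0 when WT replicate 1 and A178D replicate 4 were both left out. Of 11 adipocyte markers 7 were tested, with log2 fold changes above 0 in 4 and below 0 in 3, *Adipoq* among the latter. Their median was 0.06, and of either sign over the alternatives, being -0.05 without WT replicate 1. Of these markers 1 was called by edgeR, *Cidea*, which heart muscle also expresses (32.6, 26.6 and 31.0 CPM in WT; 40.0, 39.3, 41.6 and 41.4 CPM in A178D). *Cidea* rose by a log2 fold change of 0.43 (edgeR, adjusted p = 0.0177, higher in 4 of 4; range over the alternatives 0.000315 to 0.115). The call of *Cidea* was lost without WT replicate 3 (log2 fold change 0.35), without WT replicate 4 (0.45), without A178D replicate 1 (0.44), without A178D replicate 3 (0.42) and with the offsets (0.33). The summed adipocyte markers were 74.6, 73.4 and 93.2 CPM in WT and 86.8, 97.5, 94.0 and 90.9 CPM in A178D hearts, with *Lipe* the most abundant. *Lep*, *Retn* and *Ucp1* were at 0 in most libraries, and *Adipoq*, a defining marker of fat cells, lay between 0.0248 and 0.443 CPM.

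The 9 serine proteases of the list, which include those of C1, of the lectin pathway and of the alternative pathway, had 7 tested genes. Their median log2 fold change was -0.08, and 1 was called by edgeR. The sign of the median depended on single hearts, with 0.05 without A178D replicate 3, 0.0066 without WT replicate 3 and 0.06 without WT replicate 4. In the other direction it was -0.16 without WT replicate 1 and -0.15 without A178D replicate 1, each with 6 genes tested. Without both WT replicate 1 and A178D replicate 4 it was -0.14, also with 6 genes tested. Beside *Masp1* and *C1s1*, the groups did not overlap in *Cfb*, factor B of the alternative pathway convertase, where 16.1% of all genes were without overlap. The log2 fold change of *Cfb* was 0.24 with a 95% interval of -0.06 to 0.53 (edgeR, adjusted p = 0.423, above the WT hearts in 4 of 4), the lowest A178D heart at 4.93 CPM being next to the highest WT heart at 4.91, and it is named here after its values were seen. *C1ra*, whose product is the other protease of C1 and which is likewise named after its values were seen, had a log2 fold change of -0.08, and *C1s1* per *C1ra* was 2.70, 2.51 and 2.97 in WT and 2.2, 2.22, 2.55 and 2.70 in A178D hearts, which overlap. *C1rb* and *C1s2* were low, with at most 4 counts in any library.

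*C4b* (ENSMUSG00000073418; chromosome 17, 34728380 to 34743882, minus strand) encodes C4, whose fragment binds covalently to the surface and joins C2 to form the C3 convertase. It had 18.5, 14.6 and 15.0 CPM in WT and 22.7, 27.2, 20.5 and 19.0 CPM in A178D hearts. The groups did not overlap, although WT replicate 1 and A178D replicate 4 were near each other. The means were 16.0 ± 2.14 (SD, n = 3) and 22.4 ± 3.54 CPM (SD, n = 4), a log2 fold change of 0.48 (standard error 0.13, 95% interval 0.21 to 0.75). *C4b* was not called by edgeR (adjusted p = 0.0689, higher in 4 of 4 A178D hearts). Without WT replicate 1 it was called by edgeR at a log2 fold change of 0.60 (adjusted p = 0.0247, higher in 4 of 4), and without A178D replicate 4 at 0.55 (edgeR, adjusted p = 0.0332, higher in 3 of 3). Without both, the log2 fold change was 0.67 (edgeR, adjusted p = 0.00396, higher in 3 of 3), the lowest of a range that reached 0.265 without WT replicate 3. DESeq2 also called *C4b* (adjusted p = 0.0130, higher in 4 of 4), as did edgeR with the offsets (log2 fold change 0.53) and with no filter on low counts (0.48). The near copy *C4a* shares 23.2% of the stretches of 76 bases in *C4b* and had 6 to 20 counts, against 610 to 1432 for *C4b*.

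*C3* (ENSMUSG00000024164; chromosome 17, 57203970 to 57228136, minus strand) encodes the component on which the classical, lectin and alternative routes meet, and lies 22.5 Mb from *C4b*. It had 184, 199.9 and 168 CPM in WT and 189, 208, 193 and 193 CPM in A178D hearts. The groups overlapped, and the log2 fold change was 0.09 with a 95% interval of -0.07 to 0.25. Leaving out WT replicate 3 took it to 0.15 and leaving out WT replicate 4 to 0.03, and it was 0.10 with WT replicate 1 and A178D replicate 4 left out. *C4b* per *C3* was 0.10, 0.0730 and 0.0892 in WT and 0.12, 0.131, 0.106 and 0.0985 in A178D hearts. This ratio overlapped through WT replicate 1 and A178D replicate 4. All 4 genes listed as central components were tested and 0 were called by edgeR, with 1 at an unadjusted p under 0.05, 1 called by DESeq2 and 0 by limma-voom, and their median log2 fold change was 0.12. Leaving out A178D replicate 4 gave 0.05, leaving out WT replicate 1 gave 0.08 and leaving out WT replicate 3 gave 0.20, and with WT replicate 1 and A178D replicate 4 both left out it was 0.01.

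**Figure D3:**
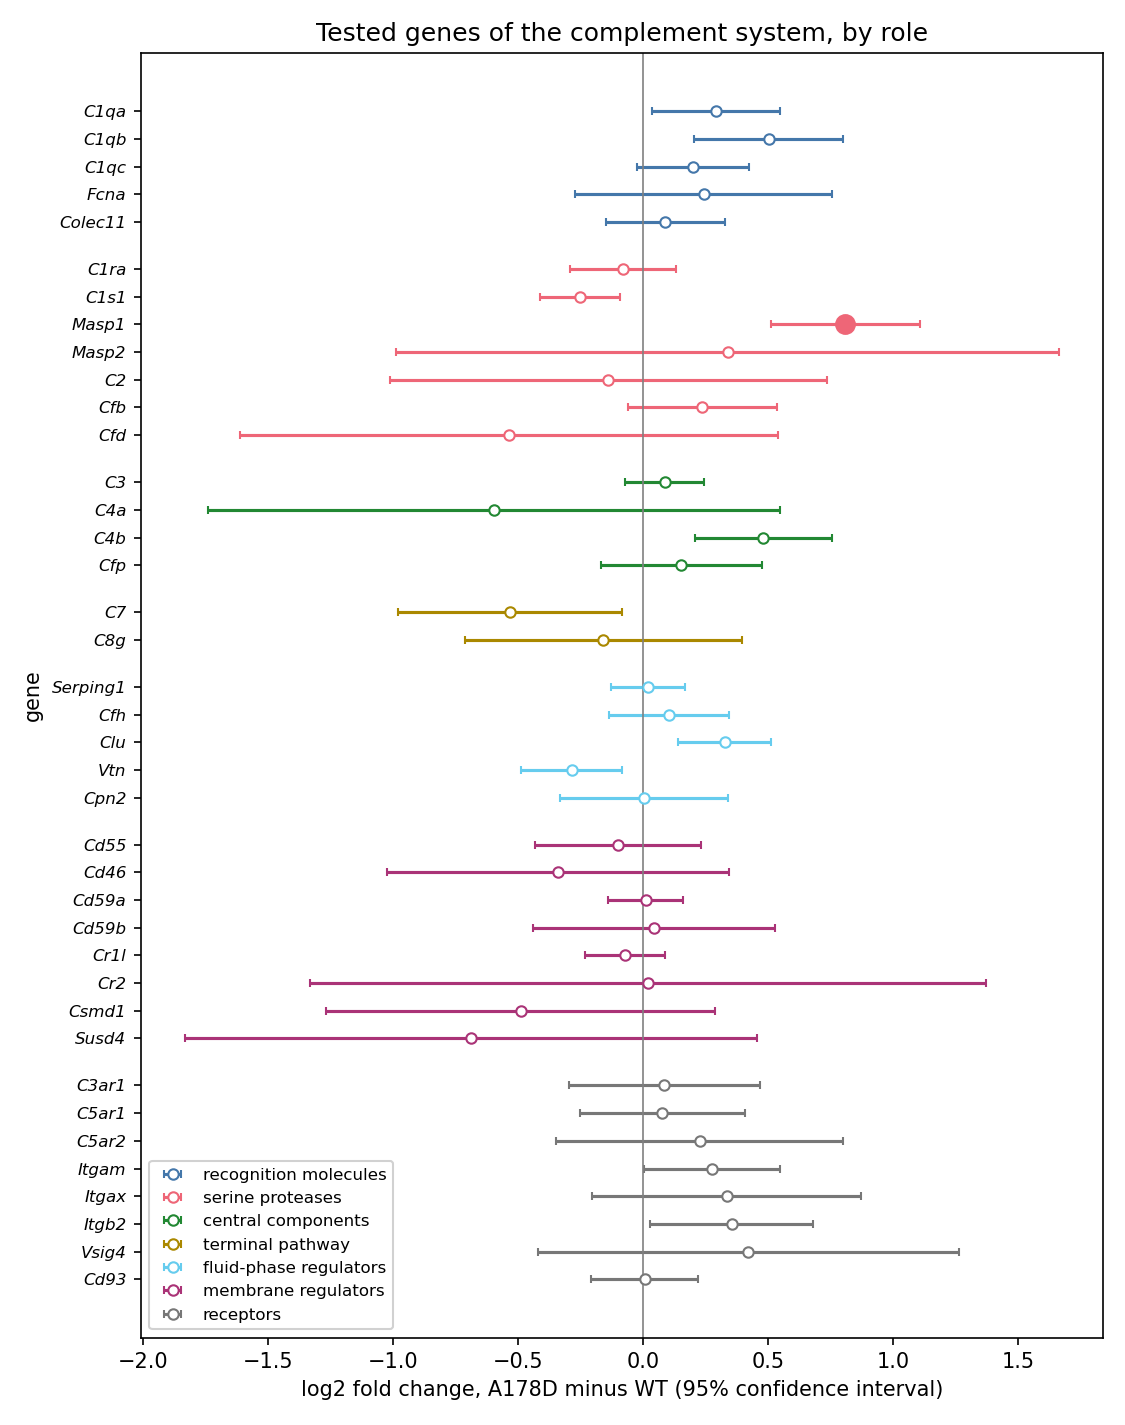
Log2 fold change (A178D minus WT) with its 95% interval for the 39 tested genes of the complement list, grouped by role, where a large filled point is called by edgeR and an open point is not. *Masp1* at 0.81 is the called gene, and the 8 receptors and the 5 recognition molecules lie above 0 with all libraries in the fit, while 6 to 8 of the receptors do so with 1 library left out.

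*Serping1* (ENSMUSG00000023224; chromosome 2, 84765387 to 84775444, minus strand) encodes the C1 inhibitor, which removes C1r and C1s from the complex and also blocks the lectin pathway proteases. It had 132, 144 and 135 CPM in WT and 143, 139, 128 and 145 CPM in A178D hearts. The groups overlapped, with the lowest and the highest heart both in A178D. Its log2 fold change was 0.02 with a 95% interval of -0.13 to 0.17, and the sign depended on the setting, with -0.05 under the offsets and -0.03 without WT replicate 1 and A178D replicate 4. *Serping1* lies 7.78 Mb from *Ttn* on the same chromosome.

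*Cd55* (ENSMUSG00000026399; chromosome 1, 130439027 to 130462744, minus strand) encodes decay-accelerating factor, a membrane protein that takes the C3 convertases apart. It had 10.7, 11.9 and 11.3 CPM in WT and 12.8, 11.1, 11 and 7.16 CPM in A178D hearts. A178D replicate 4 was the lowest heart, and the groups overlapped. The log2 fold change was -0.10 with a 95% interval of -0.43 to 0.23. It was 0.04 without A178D replicate 4, 0.00 without WT replicate 1 as well, -0.21 without A178D replicate 1 and -0.06 without WT replicate 3. Its near copy *Cd55b* had 0 counts in these libraries. Of the 9 membrane regulators listed, 8 were tested and 0 were called by edgeR, DESeq2 or limma-voom, with 0 at an unadjusted p under 0.05 and a median log2 fold change of -0.09. With 1 library left out the median of the membrane regulators lay between -0.20, without A178D replicate 2, and -0.03, without A178D replicate 4. Without both WT replicate 1 and A178D replicate 4 this median was -0.06.

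Among the regulators in the fluid phase, clusterin (*Clu*) holds back the assembly of the membrane attack complex. It had 663, 580.2 and 591 CPM in WT and 785, 712, 694 and 876 CPM in A178D hearts. The groups did not overlap. Its log2 fold change was 0.33 (standard error 0.09), and it was not called by edgeR (adjusted p = 0.0692, higher in 4 of 4 A178D hearts). *Clu* was called by DESeq2 (adjusted p = 0.0108), by edgeR with no filter on low counts (adjusted p = 0.0416), without WT replicate 1 (log2 fold change 0.39; edgeR, adjusted p = 0.0360) and without both WT replicate 1 and A178D replicate 4 (0.32; edgeR, adjusted p = 0.00982), in a range of 0.00982 to 0.263. Vitronectin (*Vtn*), which binds the same late complexes, had 39.6, 37.0 and 31.6 CPM in WT and 27.4, 28.1, 31.4 and 31.7 CPM in A178D hearts. The groups met at WT replicate 4, and the log2 fold change was -0.28 (edgeR, adjusted p = 0.142, with 4 of 4 A178D hearts below the WT mean). With the offsets *Vtn* was called at -0.35 (edgeR, adjusted p = 0.0399, within a range of 0.0399 to 0.353), and without WT replicate 1 and A178D replicate 4 its log2 fold change was -0.25. Of the 8 fluid-phase regulators listed, 5 were tested and 0 called by edgeR, 2 had an unadjusted p under 0.05, DESeq2 called 1 and limma-voom 0, and the median was 0.02. With 1 library left out the median lay between -0.0037, without WT replicate 1, and 0.12, without WT replicate 4, and it was -0.03 without WT replicate 1 and A178D replicate 4. *Cfi*, *C4bp* and *Cpn1* were low, with at most 6 counts in any library.

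The terminal pathway builds the membrane attack complex, and 5 of its 7 listed genes were low as RNA. *Hc*, *C6*, *C8a*, *C8b* and *C9* had at most 9 counts in any library, and *C8a* and *C8b* were at 0 in all 7. *C7*, which anchors the forming complex in the membrane, had 9.42, 22.0 and 14.4 CPM in WT and 10.7, 11.5, 11.2 and 8.89 CPM in A178D hearts. WT replicate 3 was far above the rest, and the groups overlapped. Its log2 fold change was -0.53 (edgeR, adjusted p = 0.218, with 4 of 4 A178D hearts below the WT mean), and -0.17 without WT replicate 3. Without WT replicate 1 *C7* was called at -0.78 (edgeR, adjusted p = 0.0131, with 4 of 4 below the WT mean), and without WT replicate 1 and A178D replicate 4 at -0.72 (edgeR, adjusted p = 0.00983), in a range of 0.00983 to 0.718. Of the 2 terminal genes tested, 0 were called by edgeR, DESeq2 or limma-voom, and at an unadjusted p under 0.05 there was 1.

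The log2 fold changes of all 8 receptors for complement fragments lay above 0 with all libraries (median 0.25), where 50.5% of all tested genes did. With a library left out 6 to 8 receptors lay above 0, the median being 0.12 without WT replicate 1. Without both WT replicate 1 and A178D replicate 4, 7 receptors lay above 0, with a median of 0.13. Of the 8 receptors, 0 were called by edgeR, DESeq2 or limma-voom. At an unadjusted p under 0.05 there were 2, where 16.7% of all genes were. These were *Itgam* and *Itgb2*, the subunits of complement receptor type 3, which binds fragments of C3 on phagocytes. *Itgam* had 6.70, 8.60 and 7.60 CPM in WT and 10.3, 8.94, 8.25 and 9.51 CPM in A178D hearts. *Itgb2* had 7.5, 7.90 and 5.91 CPM in WT and 10.3, 10.5, 7.33 and 8.28 CPM in A178D hearts. Both overlapped between the genotypes, through A178D replicate 3. The log2 fold changes were 0.28 for *Itgam* and 0.35 for *Itgb2*, and 0.18 and 0.43 without WT replicate 1 and A178D replicate 4. An annotated gene on the same strand, *Gm49368*, shares 68.7% of the exon bases of *Itgam* and was not listed in the count table.

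Hepatocyte markers were near 0 in all 7 libraries, with 3 of 8 tested, 0 called by edgeR, DESeq2 or limma-voom and 0 at an unadjusted p under 0.05. The list had *Fga* and *Fgb* at 0, at most 0.394 CPM of *Alb*, *Apoa2* as the most abundant gene and a sum of 0.867 to 2.85 CPM. Fibroblasts, which express *C1s1*, *C3*, *C4b* and *Serping1* in many tissues, had 12 of 12 markers tested and 1 called by edgeR, *Col3a1*, a fibrillar collagen. *Col3a1* rose by a log2 fold change of 0.62 (edgeR, adjusted p = 0.0317, higher in 4 of 4; range over the alternatives 0.000307 to 0.113). Its call was lost without WT replicate 3 (log2 fold change 0.67) and without A178D replicate 1 (0.63), 2 (0.60) or 3 (0.63). The summed fibroblast markers were 1374, 1456 and 1317 CPM in WT and 1661, 1550.4, 1498 and 1538 CPM in A178D hearts, and did not overlap. This rested on the 3 collagens of the list, since the other 9 markers summed to 899, 1023 and 1019 CPM in WT and 1104, 962, 955 and 968 CPM in A178D hearts, which overlap. At an unadjusted p under 0.05 there were 4, where 16.7% of all genes were. These were *Col1a1*, *Col1a2*, *Col3a1* and *Lum*, each with a log2 fold change above 0, and 3 of the 12 markers, *Pdgfra*, *Ddr2* and *Dpep1*, lay below 0. Apart from *Col3a1* these are named after their values were seen. *Dcn*, the most abundant, had a log2 fold change of 0.00, and no fibroblast marker had 0 counts in any library. *C4b* lay higher and *C1s1* lower beside this sum, and the part of fibroblasts in either was not tested.

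Markers of smooth muscle and pericytes summed to 1327, 1358 and 1332 CPM in WT and 1035, 1124, 1194 and 948 CPM in A178D hearts. Of these 8 markers 4 were called lower by edgeR, where 2.35% of all genes were called in one or the other direction. These were *Acta2*, *Myh11*, *Tagln* and *Cnn1*, with log2 fold changes of -0.59, -0.67, -0.62 and -0.82, and *Abcc9* was the most abundant. DESeq2 called 6, beside 5.06% of all genes, and limma-voom 4, beside 2.35%. At an unadjusted p under 0.05 there were 6, beside 16.7%. All 8 lay below 0, with a median of -0.46. The calls of *Myh11* and *Cnn1* were lost without WT replicate 3 (-0.73 and -0.96) and without WT replicate 4 (-0.71 and -0.84). *Cnn1* lost its call in 8 of 17 alternatives, the others being those without WT replicate 1 (-0.63), without A178D replicates 1, 2 or 3 (-0.71, -0.86 and -0.87), without WT replicate 1 and A178D replicate 4 (-0.65) and with the replicate block, which pairs hearts by number (-0.85). The markers of neutrophils (4 tested, *Csf3r* most abundant), dendritic cells (5, *Zbtb46*), endothelium (7, *Kdr*), erythrocytes (4, *Hbb-bs*) and mesothelium (1, *Wt1*) had 0 called by edgeR, DESeq2 or limma-voom, and 0 at an unadjusted p under 0.05. Of 8 cardiomyocyte markers 0 were called by edgeR, DESeq2 or limma-voom and 3 had an unadjusted p under 0.05, and *Myh6*, which defines the tissue, was the most abundant. Of 5 lymphocyte markers 0 were called by edgeR or DESeq2, 1 by limma-voom and 1 had an unadjusted p under 0.05. Their part in the complement values was not tested.

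Interferons and acute-phase cytokines are known to raise complement genes, so their targets were read beside the members. All 14 interferon-stimulated genes tested had values above 0 (median log2 fold change 0.19), where 50.5% of all tested genes did. Without WT replicate 1 this held for 9 of the 14 (median 0.03) and without A178D replicate 2 for 10 (median 0.07), while the median was 0.37 without WT replicate 3 and 0.08 without WT replicate 1 and A178D replicate 4. EdgeR, DESeq2 and limma-voom called 0 of them, and 1 had an unadjusted p under 0.05. Of 8 acute-phase genes tested, *Lcn2* and *Timp1* rose by log2 fold changes of 0.93 (edgeR, adjusted p = 0.0437, range 0.00679 to 0.175) and 1.35 (edgeR, adjusted p = 0.0130, range 5.18e-05 to 0.0849), each higher in 4 of 4 A178D hearts. The median of the acute-phase list was 0.00, of either sign over the alternatives, and *Il6st* was the most abundant. *Timp1* was no longer called without either WT replicate 3 (1.2) or WT replicate 4 (1.32). *Lcn2* lost its call in 9 of 17 alternatives, those without WT replicates 1, 3 or 4 (0.86, 0.91 and 1.02), without A178D replicates 1 or 3 (0.87 and 0.85), without WT replicate 1 and A178D replicate 4 (0.89), with limma-voom (0.91), with the offsets (0.85) and with the replicate block (1.02), which pairs hearts by number.

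The pattern of each member over the 7 libraries was compared with that of the other genes whose mean was 50 counts or more, by Pearson's r of log2 CPM after each genotype's mean was removed. With 7 libraries and 12211 genes searched, high values of r arise easily, and these are descriptions that share depth and the length trend of the libraries. Nearest to *C1qa* were *Card9*, *Idnk* and *Cdpf1*, to *C1qb* *Psenen* (r = 0.995), *Fez1* and *Kxd1*, and to *C1qc* *Rpl36a* (r = 0.996), *Nme6* and *Rps16*. Nearest to *C1s1* were *Sgk1* (r = 0.987), *Atxn1* and *Kcna4*. For *C3* they were *Ptpn6* (r = 0.986), *Phf24* and *Prrg3*, and for *C4b* *Igfbp5* (r = 1.00), *Ube2e3* and *Ssx2ip*. For *Cfd*, with its low counts, they were *Cpsf4*, *C87436* and *Psme1*. *Cd55* was nearest to *Chm* (r = 0.996), *Aqr* and *Cenpc1*, and *Serping1* to *Tom1*, *Prep* and *Cdk10*. No complement member was among the 3 nearest genes of another. Among the members themselves, the C1q chains had r of 0.858 (*C1qa* and *C1qb*), 0.894 (*C1qa* and *C1qc*) and 0.819 (*C1qb* and *C1qc*), and *C1qc* and *Serping1* had 0.916. *C1qb* and *C4b*, both higher in A178D hearts, had r of -0.765 within the genotypes.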

How the data were processed

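RNA of 3 WT and 4 A178D left ventricles was sequenced. The raw counts per gene deposited by the authors (21257 entries) were used, and the signal, which the authors made as counts divided by a size factor, was not used in the tests. The submitters' notes name bcl2fastq 2.18.0.12, HISAT2 2.1.0 on GRCm38, SAMtools 1.6 and DESeq2 1.26.0, and the counting program and annotation release were not given in the sources used here. Totals were 33080675 to 54245530 counts per library. Of the counts from 1 to 20, 17.6 to 20.3% were odd, as if a read pair was mostly counted as 2. Of the counts above 1000, 47.9 to 50.2% were odd. Of entries with identical counts in all libraries only the first was kept (whatever the identifier at a total of 30 or more counts, otherwise for the same identifier), which removed 330 and left 20927 entries. Among these are 37 later entries of an identifier with other counts, kept apart, and 69 without a symbol. Annotation gave symbols, positions and lengths (GENCODE M21). Genes that reached 10 counts in 3 or more libraries were compared with edgeR 4.0.16 (TMM, quasi-likelihood test, Benjamini-Hochberg adjustment) in R 4.3.3. The alternatives were DESeq2 1.42.0, limma-voom 3.58.1, DESeq2 size factors, other filters, halved counts, entries as deposited, a replicate block, offsets for length and GC content (mgcv 1.9.3, basis 6) and leaving out libraries. Tables and figures used Python 3.11.15, pandas 2.3.3 and matplotlib 3.10.9, and the steps were tested on simulated data. Named are the members, genes of the wider complement list that were called, had an unadjusted p under 0.05 or were low (under 10 counts in 5 or more libraries), the 3 genes most like each member, and the called genes of the other lists with, for most lists, the most abundant gene. Genes that overlap or nearly copy a named gene, and markers at or near 0, were added. The members and lists were chosen with earlier results of these data known.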

Additional observations from a re-analysis of the deposited data

Results flagged for a closer look

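In 43 groups of 4 A178D values checked, 2 held a heart far from the other 3, and chance gives about 1 in 20 such groups. No complement gene was among them. *Col3a1*, a marker of fibroblasts, had 324 CPM in A178D replicate 2, above the other A178D hearts, which lay close together. The summed cardiomyocyte markers had 112304 CPM in A178D replicate 4, above the other A178D hearts. Neither was followed further.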

How the results depend on the processing

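Of 152 values of the 9 complement members under the alternatives, 135 kept their direction and, where there was an adjusted p (DESeq2 gave none for *Cfd*), their side of the threshold, 11 became called and 6 changed sign. Of 255 values of 15 other genes, those of the wider list at an unadjusted p under 0.05 and the called genes of the other lists, 215 stayed, 33 lost their call and 7 gained one. The changes of sign were in 2 members close to 0. *Cd55* ranged from -0.205 to 0.0391 as a log2 fold change over the fits without 1 library, the highest being without A178D replicate 4, and had 0.00256 without WT replicate 1 and A178D replicate 4. *Serping1* had -0.0462 with offsets for length and GC content, -0.00248 without A178D replicate 4, -0.0037 without WT replicate 1 and -0.0285 without both, and reached 0.0561 without A178D replicate 3.

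The counts called by edgeR, 145 higher and 182 lower (2.35% of all tested genes), 0 members and 1 gene of the wider complement list, moved as follows. DESeq2 called 290 higher and 375 lower (5.06%), 3 members and 5 genes of the list. The offsets gave 230 higher and 281 lower (3.68%), 2 members and 4 genes of the list. With no filter on low counts there were 190 higher and 246 lower (2.62% of 16658), 2 members and 4 genes of the list. Leaving out single libraries gave 22 to 215 higher and 31 to 238 lower (0.384 to 3.29%), 0 to 1 members and 0 to 4 genes of the list. Leaving out WT replicate 1 and A178D replicate 4 together, chosen after seeing the data, gave 353 higher and 407 lower (5.53%), 1 member and 4 genes of the list. For each of these the cause was not tested.

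With a replicate block, which pairs hearts of the same number, 124 genes were higher and 147 lower (1.95% of all tested genes). Among them were 1 member, *C1qb*, and 2 genes of the list. A178D replicate 2 has no WT heart of its number, so it adds nothing to the genotype difference in this fit. The pairing was checked by correlating hearts of the same number over 12212 genes after each genotype's mean was removed, which gave 0.0185, -0.0918 and -0.0896. Hearts of different numbers gave -0.15 to 0.163, so hearts of the same number were no more alike. With so few hearts this check cannot exclude that the numbers mark pairs.

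The groups held 3 and 4 hearts and the libraries 33080675 to 54245530 counts, which gave *C1qb* a 95% interval of 0.21 to 0.80 on the log2 scale. For *Cfd*, with 6 to 40 counts, it ran from -1.61 to 0.54. Transcript forms and protein were not measured here.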
